A study of Mus musculus with 36 samples.

Results

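The peaks described here are stretches of RNA bound by Ago2 in mouse colonic tumours that carry a seed site for miR-15 or miR-16. A merged peak was taken when the authors' annotation lists, among its 8mer or 7mer-m8 seed sites, an entry naming miR-15 or miR-16. This rule finds 452 of the 7730 merged peaks, on 427 genes, and it uses no measured value. The tumours came from C57BL/6 mice of the genotype Halo-Ago2/+; Villin-CreER/+; Apc(fl/fl), whose K-Ras alleles were wild type (WT, 6 tumours), and from mice that carried K-Ras-G12D/+ beside those alleles (G12D, 6 tumours). At 8 to 12 weeks of age all mice received an enema of 200 µl of 4-hydroxytamoxifen at 5 mg/ml. The Cre recombinase is driven by the Villin promoter, so the loss of Apc and the K-Ras allele are those of the gut epithelium, while the tumour lawns scraped from the colon hold other cells too. After 3 rounds of UV crosslinking (400 mJ/cm2 each) Ago2 was pulled down by its Halo tag, and miRNA and mRNA fragments bound to it were sequenced. Each of 2 labelled batches holds 3 tumours per genotype, and the labels number the tumours without saying in so many words that each is 1 animal, so the p-values measure the spread between numbered samples.

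A miRNA guides Ago2 to an mRNA by pairing of its seed, bases 2 to 8 from the 5′ end, with a matching site, most often in a 3′ UTR, and the bound mRNA is then repressed. The miR-15/16 family comprises miRNAs with one seed that are made from several hairpins. Its founding pair lies in an intron of the non-coding gene Dleu2, a region lost in chronic lymphocytic leukaemia, and the family is known for holding back cell cycle and survival genes such as cyclins, Wee1, Cdc25a and Bcl2. In pulldown data of this kind a peak's signal mixes how much of the RNA a tumour holds with how much of it Ago2 binds, and in bulk tissue fewer cells of a type and less RNA per cell cannot be told apart.

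The mature miRNAs whose sites define these peaks are shown to make their shared and differing seeds visible, since these decide which peaks were listed together. All 11 names looked for were matched in RefSeq (GRCm38.p6), and capitals mark the seed.
miR-16-5p: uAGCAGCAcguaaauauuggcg
miR-15a-5p: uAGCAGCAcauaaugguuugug
miR-15b-5p: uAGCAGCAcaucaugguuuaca
miR-195a-5p: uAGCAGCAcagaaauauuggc
miR-322-5p: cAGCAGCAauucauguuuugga
miR-497a-5p: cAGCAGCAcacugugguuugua
miR-503-5p: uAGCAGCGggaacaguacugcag
miR-103-3p: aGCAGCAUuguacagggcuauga
miR-16-1-3p: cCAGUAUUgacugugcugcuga
miR-16-2-3p: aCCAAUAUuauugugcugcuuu

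The first 6 of these share the seed AGCAGCA and are the family proper. In RefSeq 10 mature mouse miRNAs carry that seed, and 6 of them are in the deposited miRNA table. miR-16-5p is encoded by Mir16-1 (chr14:61631936-61631957, minus strand) beside Mir15a, and again by Mir16-2 (chr3:69009918-69009939, plus strand) beside Mir15b, and the mature sequences of its loci are the same. miR-503-5p has a closely related seed that is not the same. The seed of miR-103-3p is shifted by a base, so that its site, ATGCTGC, shares 6 letters with the family's 7mer-m8 site, TGCTGCT. The 3p arms miR-16-1-3p and miR-16-2-3p come from the opposite strand of the hairpins and have unrelated seeds, with sites AATACTG and ATATTGG.

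The rule therefore gathers peaks of 2 kinds. An entry of the 5p family stands in 401 of the 452 peaks, and 51 were taken for a 3p arm alone. Among the 401, 144 hold an 8mer, TGCTGCTA, and 257 hold 7mer-m8 entries only. By number of peaks the 5p family is second in the annotation, after let-7 with 684 peaks and ahead of the miR-200 family with 380. Weaker matches of the 5p family were also listed, with 75 annotated peaks holding a 7mer-A1 and 203 a 6mer entry. These counts are over all annotated peaks, with or without a stronger entry, and peaks were not taken for a weaker entry alone.

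Sites of the family stood together in some of the peaks. Of the 401 peaks, 348 had 1 entry, 53 had 2 or more and 20 had 3 or more. The 7 letters of the site overlap a copy of themselves shifted by 3, so a run of the triplet TGC holds many, and the most crowded peak, in an intron of RP23-81N4.4, has 7 entries, for which 25 letters are enough. The count was 6 entries each in the 3′ UTR of Stam, an adaptor of endosomal sorting, and in an intron of RP23-71J17.1, and 5 entries in an exon of Sephs2, a selenophosphate synthetase. Of the 53 peaks with 2 or more entries, 35.85% lay in 3′ UTRs and 16.98% in introns, against 52.30% and 9.48% of the peaks with 1 entry. The peaks' own sequences were not read, as no genome was used here.

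Overlap of seeds also links these peaks to miR-103 and miR-107, miRNAs known for their part in metabolism. An 8mer or 7mer-m8 entry of the miR-103 family stood in 23.45% of the 452 peaks, against 2.18% of all annotated peaks, and an entry of any class in 99.50% of the 5p peaks. The letters TGCTGC are at once the miR-103 6mer and part of the family's site. Other co-listed families were miR-21-3p in 29 peaks, miR-29-3p in 26, let-7 in 23, miR-24-3p in 18 and the miR-17 family in 12. A total of 153 peaks had no entry of another family among their 8mer and 7mer-m8 sites.

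By the authors' annotation, 3′ UTRs held 51.77% of the 452 peaks, exons 33.63%, introns 10.84% and 5′ UTRs 3.76%, against 51.94%, 32.17%, 12.14% and 3.74% of all annotated peaks. Classes that the authors marked with an asterisk were counted with the class they modify, as the mark is not explained in the sources used here. The peaks were 36 to 116 bases wide, with a median of 57. The authors called 1 peak list per genotype, and with at least 1 shared base as overlap, 344 of the 452 met only the G12D list, 5 only the WT list and the rest both. Of all 7585 annotated peaks, 5450 met only the G12D list and 149 only the WT list. Presence of the 452 in the WT list, 23.89%, lay below the 28.15% of all annotated peaks. The shallow WT libraries described next bear on any such count in a way that was not tested.

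Reads recovered in peaks numbered 30607 in WT replicate 5 and 57037 in WT replicate 6, and 125384 to 974013 in the other 10 libraries. In WT replicates 5 and 6, 60.8% and 32.7% of the 452 peaks had no read, against 0.221% to 5.75% elsewhere. Fold changes of peaks are therefore given with all tumours and, for single peaks or as a range over a set, without these 2. For the target genes it is mainly the range. A further library, G12D replicate 3, belongs to batch 1 by its label and lay with batch 2 in several of the values below. Peaks stood on 20 of 24 marker genes of colon epithelium, with summed levels of 1024 to 12252 normalised counts in WT and 5713 to 12559 in G12D, and on 1 of 16 leukocyte markers (H2-Eb1, 9.06 to 147 in WT and 39.4 to 116 in G12D). They stood on 3 of 14 markers of fibroblasts and smooth muscle (Col1a1, Col1a2 and Col3a1, summing to 18.1 to 649 in WT and 211 to 659 in G12D) and on 1 of 12 of endothelium and nerve (Ret, 0 to 32.2 in WT and 22.1 to 112 in G12D). The receptor gene Ret holds 1 of the 452 peaks, with a log2 fold change of 2.20 by limma (0.92 without WT replicates 5 and 6) and a call by DESeq2 (adjusted p = 0.0383), and it was named after its values were seen. What part these cell types have in the results was not tested. No peak was listed on the leukocyte markers Ptprc and Cd3e or on the endothelial markers Pecam1 and Cdh5.

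The miRNAs that could load Ago2 at these sites were abundant and did not differ detectably between genotypes. miR-16-5p had 2278, 2500 and 2652 normalised counts in WT (lowest, median and highest of 6 tumours) and 2097, 2343 and 2726 in G12D. miR-15a-5p had 2004, 2321 and 2455 in WT and 2021, 2197 and 2465 in G12D. These ranked 46 and 50 among 596 miRNAs and made up 46.0% and 42.8% of the family's summed level. The other members were lower, with means of 353 ± 49.9 in WT and 351 ± 66.6 in G12D for miR-15b-5p, 211 ± 58.5 and 206 ± 78.5 for miR-322-5p, 27.6 ± 27.2 and 23.1 ± 17.6 for miR-195a-5p, and 10.8 ± 10.7 and 9.69 ± 8.39 for miR-497a-5p (SD, n = 6 each). Summed over the 6 miRNAs, the family held 5360 ± 321 (WT) and 5177 ± 183 (G12D) normalised counts (SD over 6 tumours), or 1.11% to 1.73% of all miRNA counts in a tumour.

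Between genotypes, limma with batch as a covariate called 0 of the 6 family miRNAs, where 1.76% of 284 miRNAs were called up in G12D and 2.11% down. With no adjustment, at p under 0.05, the count was also 0, as were the counts by edgeR and DESeq2. The log2 fold changes were -0.08 for miR-16-5p (SE 0.07, adjusted p = 0.555) and -0.02 for miR-15a-5p (SE 0.08, adjusted p = 0.893), and those of the other 4 lay between -0.09 and 0.00. For miR-16-5p, 3 of 6 G12D tumours lay below every WT tumour and 1 above. Its log2 fold change was -0.0048 in batch 1 alone, -0.16 in batch 2 alone and -0.06 without WT replicates 5 and 6. The opposite arms, which name the 3p sites, averaged 294 ± 39.7 (WT) and 282 ± 34.3 (G12D) normalised counts for miR-16-1-3p, and 199 ± 45.1 and 169 ± 25.2 for miR-16-2-3p (SD over 6 tumours). miR-103-3p, whose site overlaps, averaged 886 ± 165 (WT) and 1134 ± 202 (G12D; SD over 6 tumours), with 4 of 6 G12D tumours above every WT tumour and a log2 fold change of 0.36 (SE 0.16, adjusted p = 0.244). That difference was 0.02 in batch 1 alone, 0.69 in batch 2 alone and 0.12 without WT replicates 5 and 6.

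**Figure D1:**
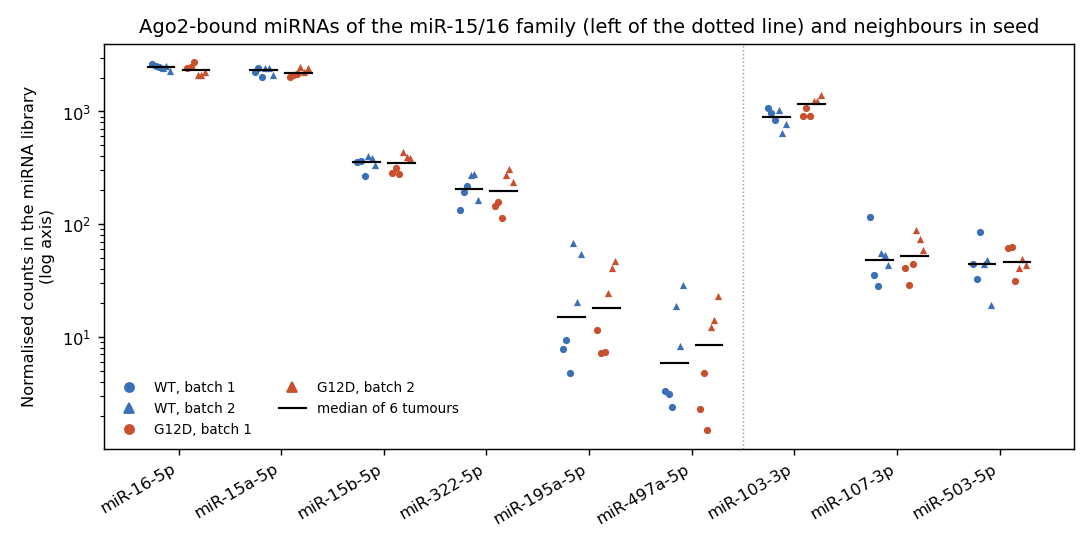
Normalised counts (log axis) of the 6 miR-15/16 family miRNAs and of 3 miRNAs with neighbouring seeds in each tumour; colours are genotypes, symbols are batches and bars are medians of 6 tumours. miR-16-5p and miR-15a-5p lie between 2004 and 2726 in all 12 tumours, while miR-195a-5p and miR-497a-5p are higher in each batch 2 tumour than in any batch 1 tumour.

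The minor members differed between batches. miR-195a-5p lay at 4.76 to 11.5 normalised counts in batch 1 and at 20.6 to 68.5 in batch 2, and its neighbour on chromosome 11, miR-497a-5p, at 1.48 to 4.77 and 8.37 to 28.6. Neither pair of ranges overlaps. The batch term of the limma fit was 2.21 on the log2 scale for miR-195a-5p (SE 0.32, adjusted p = 0.000723), 2.20 for miR-497a-5p (SE 0.35, adjusted p = 0.00083) and 0.68 for miR-322-5p (SE 0.20, adjusted p = 0.0230). The other 3 were not called, with adjusted p of 0.246 for miR-15a-5p, 0.137 for miR-16-5p and 0.0534 for miR-15b-5p. Without WT replicates 5 and 6 the last of these was 0.0286. With all tumours, 3 of the 6 were thus called, among 284 miRNAs of which 13.7% were higher and 13.4% lower in batch 2. miR-15b-3p, the opposite arm of miR-15b, was also higher in batch 2, at 102 to 143 against 34.1 to 77.7. Peaks on the 3 fibroblast marker genes summed to 56.3 to 582 normalised counts in batch 1 and 18.1 to 659 in batch 2, ranges that overlap, and what moved with the batch was not tested.

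The comparison of genotypes asked which of the 452 peaks carried more or less Ago2-bound RNA in G12D tumours. Of these, 449 passed the minimum mean of 5 normalised counts and were tested. Of the 452, 344 met the G12D list alone and 5 the WT list alone, against 5450 and 149 of all 7585 annotated peaks. Peaks enter the table through the libraries where they are high, so an excess of peaks higher in G12D can be in part built in. By limma, G12D exceeded WT in 0 of the 449 and fell short in 0, as for 0% of all 7527 peaks either way, and the smallest adjusted p among the 449 was 0.108. With no adjustment, at p under 0.05, 211 peaks were higher and 1 lower, against 35.9% and 0.173% of all peaks. The median log2 fold change of the 449 was 1.5, beside 1.33 over all peaks, so that most of this shift is common to the whole table. Without WT replicates 5 and 6 these medians were 0.48 and 0.38.

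How many of these peaks were called depended on the tool and the scaling. DESeq2 on the recovered reads with the deposited size factors called 80 higher and 1 lower (17.82% higher), against 10% of all peaks higher and 0.345% lower, and the authors' deposited table holds the same 81 calls. Without WT replicates 5 and 6 it called 15 higher and 1 lower, where the background is 2.6% and 0.106%. edgeR called 1 higher (background 0.0531%) and 0 lower (background 0.0797%), the Abcb1a peak, and limma without the shallow WT tumours called the same peak alone (background 0.0399%). When DESeq2 computed its own size factors, 2 were higher and 3 lower (background 0.558% and 0.996%) and the median over all peaks was 0.07. limma with 5 added before the logarithm called 61 higher and 1 lower (background 6.72% and 0.093%), and with library weights 55 and 2 (background 10.8% and 0.505%). Leaving out WT replicate 4, the deepest WT library, gave 257 limma calls higher and 1 lower, where 45.1% and 0.173% of all peaks were called.

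Relative to all peaks, the 452 lay slightly higher. Their median exceeded that of all peaks by 0.17 on the log2 scale in the main fit and by 0.07 to 0.28 over 28 settings, and 60.1% of them lay above the median of all peaks. By region this excess was 0.74 in introns, 0.51 in 5′ UTRs, 0.10 in exons and 0.04 in 3′ UTRs. The medians were 1.53 for the peaks with a 5p entry, 1.24 for those with 3p entries only, 1.3 for let-7 peaks, 1.37 for miR-17 family peaks and 1.31 for peaks with no 8mer or 7mer-m8 entry. Without WT replicates 5 and 6 these were 0.51, 0.28, 0.33, 0.40 and 0.36. Within the 5p peaks the median was 1.51 with an 8mer and 1.58 with 7mer-m8 entries only, so the stronger site class did not have the higher median. Without those tumours these were 0.46 and 0.55. By number of entries the median was 1.51 for 1 entry, 1.72 for 2 or more and 1.87 for 3 or more, or 0.49, 0.58 and 0.73 without those tumours. In exons it was 1.45 for all 5p peaks, 1.52 with 2 or more entries (23 peaks) and 1.38 with 3 or more (5 peaks). In introns these were 2.12, 2.07 (9 peaks) and 2.21 (6 peaks), and in 3′ UTRs 1.41, 1.58 (19 peaks) and 1.81 (7 peaks). All annotated peaks of these regions had 1.31, 1.47 and 1.31. Introns held 30% of the peaks with 3 or more entries (6 of 20) and 9.48% of those with 1. DESeq2 called 18 of 144 peaks with an 8mer higher and 58 of 255 with 7mer-m8 entries only, against 10% of all peaks. Without WT replicates 5 and 6 it called 4 and 11 of them higher, against 2.6% of all peaks. These differences between classes were not tested.

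**Figure D2:**
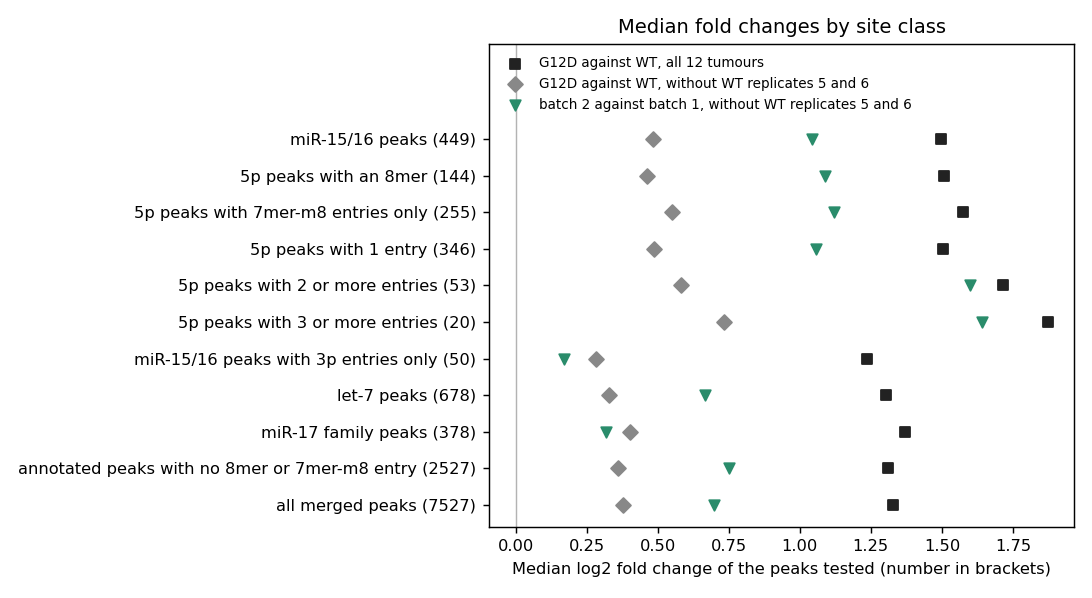
Median log2 fold changes of tested peaks by site class (number of peaks in brackets), for G12D against WT with all 12 tumours (squares), without WT replicates 5 and 6 (diamonds), and for batch 2 against batch 1 without them (triangles). All classes lie above 0, the peaks with a miR-15/16 site at 1.5, 0.48 and 1.04 beside 1.33, 0.38 and 0.70 over all peaks.

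Among peaks with a mean of at least 20, the 6 with the highest fold changes are on Abcb1a, Clasrp, Ihh, Plekha6, Kat6a and S100a14. Abcb1a, which encodes the drug efflux pump P-glycoprotein, has a peak in an exon (chr5:8733659-8733712) that lay at 0, 4.96 and 21.2 normalised counts in WT (lowest, median, highest) and at 28.3, 66.7 and 125 in G12D. All 6 G12D tumours lay above every WT tumour, and the log2 fold change was 3.53 (SE 0.73, adjusted p = 0.108) with all tumours and 2.49 (adjusted p = 0.031) without WT replicates 5 and 6. Over its 27 alternatives the value ran from 2.15 to 4.5 and the adjusted p from 1.05e-08 to 0.648. Abcb1a has a close paralog, Abcb1b, and reads of the pair may be split, so this level is uncertain. The 3′ UTR peak of S100a14 (chr3:90528618-90528676), a calcium-binding protein of epithelia, lay at 0, 28.2 and 41.7 in WT and at 55.6, 74.0 and 140 in G12D, again without overlap. Its log2 fold change was 2.93 (SE 0.85, adjusted p = 0.108) with all tumours and 1.15 (adjusted p = 0.184) without WT replicates 5 and 6, which hold the values of 0. Ihh, the hedgehog ligand of colonocytes, had 0, 11.4 and 55.3 in WT and 29.7, 56.1 and 181 in G12D in its 3′ UTR (chr1:74945651-74945707), where only WT replicate 4 reached the G12D range (log2 fold change 3.10, adjusted p = 0.108, and 1.23 without WT replicates 5 and 6).

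Of the other 3, Kat6a and Clasrp showed a split within G12D. The exon peak of Kat6a, a histone acetyltransferase (chr8:22932581-22932629), lay at 3.38 and 4.15 in G12D replicates 1 and 2 and at 46.3 to 99.2 in replicates 3 to 6, with 0, 1.78 and 22.2 in WT. Clasrp, a regulator of splicing, had 1.45 and 4.15 in those G12D tumours and 39.4 to 127 in the other 4, against 0, 2.41 and 10.9 in WT (chr7:19593113-19593161). The intron peak of Plekha6 (chr1:133205348-133205435) had 16.6, 55.2 and 96.6 in G12D and 0, 4.69 and 32.1 in WT. Their log2 fold changes were 2.96, 3.12 and 2.98 (adjusted p = 0.108 each), or 2.10, 2.28 and 1.67 without WT replicates 5 and 6, and for Kat6a and Clasrp these rest on replicate 3 and the batch 2 tumours.

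At the other end, Mt3, a metallothionein, had the lowest fold change. Its 3′ UTR peak (chr8:94153901-94153960) lay at 13.6, 49.1 and 220 in WT and at 0, 14.0 and 18.0 in G12D, with 5 of 6 WT tumours above every G12D tumour. The log2 fold change was -2.61 (SE 0.79, adjusted p = 0.108), it was negative in all 27 alternatives, from -3.75 to -1.66 with adjusted p from 1.24e-05 to 0.648. It was -3.07 without WT replicates 5 and 6. DESeq2 with the deposited size factors called Mt3 alone lower, and with its own size factors it called Mt3, Notum and Agfg1 lower. Notum, a secreted enzyme that inactivates Wnt ligands, had 6.71, 29.3 and 270 in WT and 2.77, 13.6 and 40.2 in G12D in an exon (chr11:120657488-120657535), where WT replicate 6 alone held the 270. Its log2 fold change was -1.03 (adjusted p = 0.219) by limma, -0.59 without WT replicates 5 and 6, and -2.59 by DESeq2 with its own size factors (adjusted p = 0.0292; 0.0292 to 0.891 over 27 alternatives). The intron peak of Agfg1, taken for a miR-16-2-3p entry, had 17.1, 35.7 and 53.0 in WT and 16.2, 23.6 and 42.9 in G12D. Its log2 fold change was -0.47 (adjusted p = 0.507) by limma, -0.58 without WT replicates 5 and 6, and -1.44 by DESeq2 with its own size factors (adjusted p = 0.0208; 0.0208 to 0.880 over 27 alternatives). Cldn2 (0.13), Slc39a4 (0.28) and Plpp3 (0.28) completed the lowest 6 with log2 fold changes that turned negative under several alternatives, and that were -0.56, -0.19 and 0.16 without WT replicates 5 and 6.

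**Figure D3:**
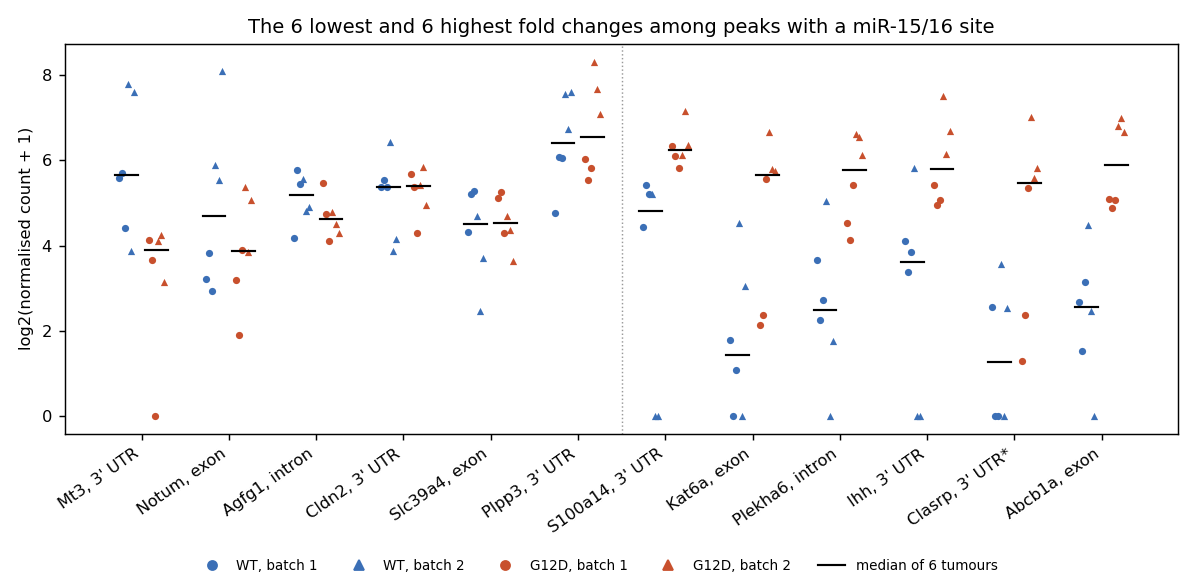
Levels, as log2(normalised count + 1), in 12 tumours of the 6 peaks with the lowest (left of the dotted line) and the 6 with the highest fold change among peaks with a mean of at least 20; bars are medians of 6 tumours. Abcb1a and S100a14 do not overlap between genotypes, and in Kat6a and Clasrp the G12D tumours fall into a low pair and a high group of 4.

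A total of 10 of the 449 peaks (2.23%) lay higher in every G12D than in every WT tumour, against 1.7% of all peaks, and none lay lower in every G12D tumour (background 0%). Beside Abcb1a and S100a14, and named after their values were seen, they were on Gda, Anxa11, Kcnn4, Rapgef2, Mat2b, AC162528.2, Il10ra and Antxr2. The 3′ UTR peak of Kcnn4, a calcium-activated potassium channel (chr7:24384935-24385001), lay at 4.53, 13.3 and 28.1 in WT and 32.4, 65.3 and 119 in G12D (log2 fold change 2.23, adjusted p = 0.108, and 1.65 without WT replicates 5 and 6). That of Gda, guanine deaminase, lay at 4.53, 30.8 and 51.4 and at 56.4, 83.3 and 111 (log2 fold change 2.00, adjusted p = 0.108, and 0.96 without those tumours). The G12D list alone was met by 344 of the 452 peaks and by 5450 of all 7585 annotated peaks. The lean of these counts to G12D can therefore be in part built in.

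Genes known as targets of the family were examined in 4 lists of 71 genes. Of these, 38 had any peak and 12 had a peak with a listed miR-15/16 site, 14 such peaks in all, 9 with an 8mer and 11 in a 3′ UTR. limma called 0 of the 14 (background 0%) and DESeq2 with deposited size factors called 1 higher (background 10%), while 8 lay above the median fold change of all peaks. With WT replicates 5 and 6 left out, the log2 fold changes of the 14 ran from -0.29 for Igf2r to 1.15 for the exon peak of Spred1, lower than with all tumours for each.

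Among 20 cell cycle genes, 7 had a peak and 3 had a listed site, each an 8mer in the 3′ UTR. Cdc25a, the phosphatase that activates cyclin-dependent kinases, had the highest mean of the 14 peaks, with 24.1, 105 and 308 normalised counts in WT and 129, 200 and 264 in G12D (chr9:109892858-109892923). The groups overlap, since WT replicate 4 held the 308, and the log2 fold change was 1.15 (SE 0.64, adjusted p = 0.169). Wee1, the kinase that holds cells before mitosis, had 0, 18.5 and 45.4 in WT and 26.1, 34.8 and 83.5 in G12D (chr7:110142630-110142697, log2 fold change 1.69, adjusted p = 0.130). E2f3, a transcription factor of the G1 to S transition, had 0, 12.5 and 25.7 and 9.93, 19.8 and 43.9 (chr13:29907363-29907430, log2 fold change 1.62, adjusted p = 0.141). Ccnd1, Ccnd2 and Cdk6, also known targets, had peaks without a listed miR-15/16 site.

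Of 16 survival and proliferation genes, 11 had a peak and 2 had a listed site. Mcl1, an inhibitor of apoptosis, carried its 7mer-m8 in an exon (chr3:95660757-95660813) with 0, 9.98 and 38.0 in WT and 9.68, 36.1 and 73.2 in G12D (log2 fold change 1.73, adjusted p = 0.132). Within G12D its 3 batch 1 tumours lay at 9.68 to 16.2 and its 3 batch 2 tumours at 56.1 to 73.2. Myb, a transcription factor of crypt progenitors, had 2.41, 16.5 and 28.4 in WT and 12.5, 17.5 and 51.1 in G12D (chr10:21125442-21125510). Its log2 fold change was 0.64 (adjusted p = 0.423), and -0.14 without WT replicates 5 and 6. No peak of any kind was listed on Bcl2, the family's best known target.

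The growth factor list had the most sites, 6 on 5 of its 19 genes. Spred1, an inhibitor of Ras to MAPK signalling, had an 8mer in an exon (chr2:117177858-117177915) and another in its 3′ UTR (chr2:117180184-117180236). The exon peak lay at 0, 25.6 and 128 in WT and 30.4, 205 and 298 in G12D, with a log2 fold change of 2.69 (SE 0.88, adjusted p = 0.108), and it was the 1 peak of the 14 that DESeq2 called (adjusted p = 0.0306; over the 27 alternatives 0.0162 to 0.653). The 3′ UTR peak lay at 0, 7.86 and 26.8 and at 8.52, 12.5 and 38.0 (log2 fold change 1.05, adjusted p = 0.216). Vegfa, the angiogenic growth factor, had 0, 17.5 and 26.2 in WT and 20.05, 34.6 and 54.7 in G12D (chr17:46018553-46018612, log2 fold change 1.88, adjusted p = 0.115), with 4 of 6 G12D tumours above every WT tumour. Mapk3, which encodes the kinase ERK1, had 0, 9.12 and 15.3 and 9.26, 19.1 and 26.3 (log2 fold change 1.80, adjusted p = 0.12). Pik3r1, a regulatory subunit of PI3-kinase, had a log2 fold change of 1.53 (adjusted p = 0.136). Igf2r, the receptor that clears IGF2, had 12.6 and 12.9 as the medians of WT and G12D. Its log2 fold change was 1.02 (adjusted p = 0.272), and -0.29 without WT replicates 5 and 6.

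In the list of Wnt, activin and TGF-beta genes, 8 of 16 had a peak and 2 had listed sites. Axin2, a feedback inhibitor of Wnt signalling, had 0, 14.8 and 56.8 in WT and 10.4, 29.2 and 61.0 in G12D (chr11:108949835-108949892, log2 fold change 1.2, adjusted p = 0.228, and -0.12 without WT replicates 5 and 6). Smad7, the inhibitory Smad, had an 8mer in its 3′ UTR at 9.06, 59.5 and 81.4 in WT and 44.0, 74.9 and 124 in G12D (log2 fold change 0.84, adjusted p = 0.265). A 7mer-m8 in a Smad7 intron lay at 0, 2.45 and 7.90 and at 1.38, 19.7 and 32.5 (log2 fold change 2.11, adjusted p = 0.111). Of the 14 peaks, those on Axin2, Igf2r, Myb and Cdc25a and the 3′ UTR peak of Smad7 had negative fold changes under at least 1 other scaling or choice of libraries.

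**Figure D4:**
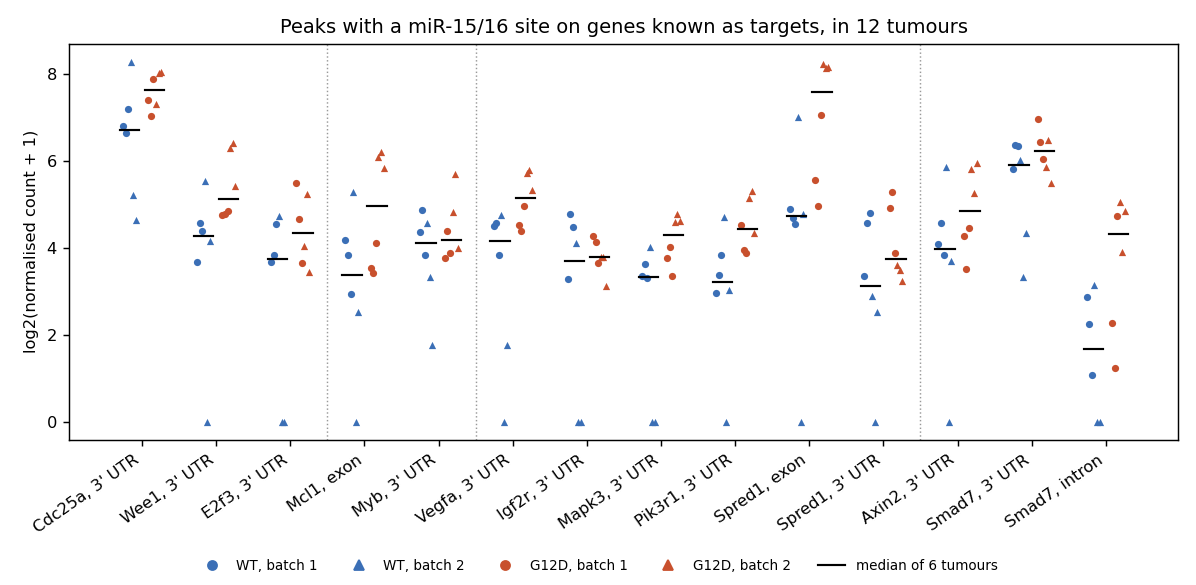
Levels, as log2(normalised count + 1), in 12 tumours of the 14 peaks on genes known as targets of the miR-15/16 family, grouped by dotted lines into cell cycle, survival and proliferation, growth factor signalling, and Wnt, activin and TGF-beta genes; bars are medians of 6 tumours. The groups overlap in all 14, and points at 0 are the WT replicates 5 and 6.

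Of the 452 peaks, those with the highest means were on Muc2, Trp53inp1, Hspa8 and Usp1. Muc2, the secreted mucin of goblet cells, led with a mean of 930, and lay at 58.9, 282 and 1507 in WT and 243, 1467 and 2766 in G12D (chr7:141748009-141748062). The authors' annotation puts that peak in a 5′ UTR, although it starts 57669 bases after the start of the gene in RefSeq and ends 6629 before its end. Usp1, a deubiquitinase of DNA repair, had 83.5 to 419 in batch 1 and 13.6, 772 and 1094 in batch 2. Trp53inp1, a p53-responsive gene, had 31.7, 454 and 841 in WT and 293, 428 and 1289 in G12D, and was taken for a miR-16-2-3p entry beside an 8mer of the miR-17 family. Hspa8, the constitutive Hsp70 chaperone, had 45.8, 454 and 781 in WT and 347, 683 and 917 in G12D.

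The next in order of mean included Pcgf3, Atp1b1, Ly6e, Tnpo1, Fem1c, Lrig1 and Anks4b, with means of 342 down to 188. Lrig1, a restraint on EGF receptor signalling that marks intestinal stem cells, lay at 26.5, 50.6 and 233 in WT and 62.2, 267 and 691 in G12D. Anks4b, a scaffold of brush border microvilli, lay at 18.1, 84.4 and 239 and at 110, 301 and 416. limma called 0 of these 12 peaks by genotype, with log2 fold changes from 0.58 for Pcgf3 to 2.31 for Usp1 and adjusted p from 0.108 to 0.409. The fold changes of the 12 ran from -0.20 to 0.88 without WT replicates 5 and 6.

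Some genes carried several of these peaks, 1 with 3 and 23 with 2. The 3 peaks in the 3′ UTR of Trim6, a ubiquitin ligase, lie side by side between chr7:104233452-104233491 and chr7:104233635-104233690, and each pairs a let-7 8mer with a miR-16-1-3p 8mer and has no 5p site. Their mean levels were 10.3, 46.8 and 47.3 and their log2 fold changes 0.43, 1.44 and 1.41, or -0.50, 0.23 and 0.37 without WT replicates 5 and 6. In Acvr1b, an activin receptor, neighbouring intron peaks (chr15:101196018-101196061 and chr15:101196085-101196133) had means of 38.7 and 40.8 and log2 fold changes of 2.60 and 2.86, or 1.18 and 0.85 without those tumours. Peaks of 1 gene share its RNA and are not independent.

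The 2 sites within Spred1 differed by batch. The Spred1 exon peak lay at 22.4 to 45.8 in batch 1 but for 132 in G12D replicate 3, and at 128 to 298 in the batch 2 tumours other than WT replicates 5 and 6. Its 3′ UTR peak lay at 9.30 to 38.0 in batch 1 and at 0 to 11.1 in batch 2. Without WT replicates 5 and 6 the limma batch terms were 2.31 (adjusted p = 0.00109) and -1.29 (adjusted p = 0.0249), so these sites of a single gene moved in opposite directions between batches.

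Batches were also compared over all of the peaks. With all tumours, the batch term called 15 of the 449 higher and 9 lower in batch 2, against 3.02% and 5.99% of all peaks, and its median was -0.01, beside -0.29. Without WT replicates 5 and 6 it called 207 higher and 15 lower (46.1% higher), against 34.8% and 5.97%, with a median of 1.04 beside 0.70. DESeq2 with all tumours called 106 and 25 (background 18.8% and 12.1%). Every batch 2 tumour lay above every batch 1 tumour in 8 peaks (background 1.66%) and below in 4 (background 1.9%). In limma without WT replicates 5 and 6, the medians by region were 2.23 for 5p peaks in introns, 1.17 in exons and 0.84 in 3′ UTRs. All annotated peaks of those regions had 1.16, 0.59 and 0.67. With all tumours the 5p medians were 1.00, 0.22 and -0.14, beside 0.02, -0.35 and -0.34. In the fit without WT replicates 5 and 6, the 50 peaks with 3p entries only had a median of 0.17, let-7 peaks 0.67 and miR-17 family peaks 0.32. For 5p peaks with 2 or more entries the median in that fit was 1.6, with 36 of 53 called higher and 0 lower (background 34.8% and 5.97%). By region it was 2.51 in introns (9 peaks), 1.81 in exons (23 peaks) and 0.84 in 3′ UTRs (19 peaks), the last beside 0.84 for all 5p peaks there. With all tumours the median of this class was 0.55, with 3 of 53 called higher and 0 lower (background 3.02% and 5.99%).

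The levels of the 42 intron peaks with a 5p entry are given as a description. Of these, 41 were called in the G12D list alone, as were 806 of all 921 annotated intron peaks. Peaks enter the table through the libraries where they are high, so the levels of the 42 are no further support for the batch term. Their median was 3.35 to 3.79 normalised counts in the WT tumours of batch 1 and 3.46 and 4.34 in G12D replicates 1 and 2. In G12D replicate 3 it was 16.2, in WT replicate 4 it was 16.05, and in the G12D tumours of batch 2 it was 26.04 to 32.05. All annotated intron peaks had medians of 7.83 to 9.47 in the WT tumours of batch 1 and 22.2 to 25.3 in the G12D tumours of batch 2, so the peaks with a miR-15/16 site lay below the others in the first set and above them in the second. Summed over all 452, these peaks held 4.00% to 4.85% of the peak signal in 5 tumours of batch 1, 5.32% in G12D replicate 3, 5.62% to 5.85% in 4 tumours of batch 2, and 1.63% and 3.79% in WT replicates 5 and 6. The depth of the library, the batch and the region of the peak move together here in part, and their parts in the result were not tested.

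**Figure D5:**
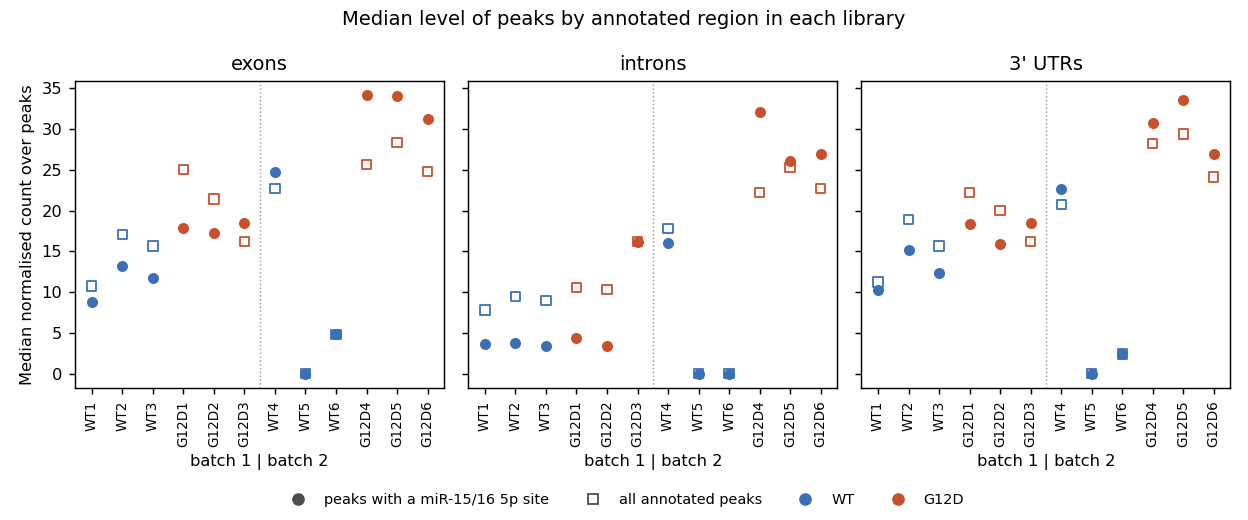
Median normalised count over peaks in exons, introns and 3′ UTRs in each library, for peaks with a miR-15/16 5p site (filled circles) and for all annotated peaks (open squares), with batch 1 left and batch 2 right of the dotted line. In introns the miR-15/16 peaks lie at 3.35 to 4.34 in 5 libraries of batch 1 and at 16.2 in G12D replicate 3, and WT replicates 5 and 6 lie near 0 in each panel.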

How the data were processed

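The authors deposited signal tables of 596 miRNAs and 7730 merged peaks, in which reads were divided by a size factor for each library. The submitters' processing notes name STAR 2.5.2b, DESeq2, mm10 and GRCm38 with no role, and no source used here names the caller of peaks. Column headers of the peak table give model and number only; they were read as mRNA libraries, and input libraries were not used here. Reads were recovered from the steps of the values (100% whole within 0.001), 30607 to 974013 per mRNA library, without evidence that each is a separate molecule. Deposited log2 fold changes and p-values of the authors' comparison are named as such. Of the deposited peak lists positions were used and scores were not. Seed entries and regions are the authors' annotation, which lacks 145 merged peaks. Overlapping genes and paralogs can share reads.

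limma-trend (limma 3.58.1, R 4.3.3) was fitted to log2(value + 1) across all features, adjusting for batch, with Benjamini-Hochberg adjustment at 0.05. It covered 7527 peaks with a mean of at least 5 and 284 miRNAs with a mean of at least 10. The added 1 shrinks fold changes of low peaks. edgeR 4.0.16 and DESeq2 1.42.0 on recovered reads were alternatives, and fits were tested on simulated data. Named peaks are the 12 of highest mean, the 6 highest and 6 lowest fold changes at a mean of at least 20, those on target-list genes, and genes with 3 or more. Members and lists were chosen with earlier results of these data known.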

Additional observations from a re-analysis of the deposited data

Results flagged for a closer look

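In groups of 6 tumours, a value was marked where its gap to the nearest other tumour, over the range of the group, exceeded the 95% limit of Dixon. This marked 12 of 100 groups, where chance marks about 1 in 20 if values are normally distributed. The values were normalised counts with no logarithm taken, so that rate may not hold here, and groups of peaks share libraries. The highest WT tumour stood apart for Muc2 (1507 normalised counts), Usp1 (617), Tnpo1 (242), Lrig1 (233), the Spred1 exon peak (128), Ihh (55.3), Abcb1a (21.2), Plekha6 (32.1) and Kat6a (22.2), and in these 9 it was WT replicate 4, the deepest WT library. It stood apart for Notum too (270, WT replicate 6) and, among miRNAs, for miR-107-3p (116, WT replicate 1). In G12D the highest S100a14 value (140, replicate 5) stood apart.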

How the results depend on the processing

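Counts of peaks called higher and lower, first for genotype and then for batch, and log2 fold changes (G12D against WT) that changed sign were as follows; the cause was not tested. DESeq2 with deposited size factors gave 80 and 1, then 106 and 25, with Cldn2 -0.078, miR-195a-5p -0.13 and miR-107-3p -0.039. With its own size factors it gave 2 and 3 (median 0.20), then 75 and 74, with Cdc25a -0.015, Plpp3 -0.90, Smad7 3′ UTR -0.21, Cldn2 -0.90, Axin2 -0.39, Slc39a4 -0.64, Myb -0.41, Igf2r -0.57, the first Trim6 peak -0.066, miR-195a-5p -0.13 and miR-107-3p -0.048. Without WT replicates 5 and 6 (chosen after seeing the data) it gave 15 and 1, with Cldn2 -0.47, Axin2 -0.11, Slc39a4 -0.13, Myb -0.070, Igf2r -0.30, miR-195a-5p -0.31, miR-503-5p -0.034 and miR-107-3p -0.31. edgeR with deposited size factors gave 1 and 0, then 57 and 12, with Cldn2 -0.065, miR-195a-5p -0.12 and miR-107-3p -0.036. With TMM it called 1 lower (median 0.25), then 67 and 52, with Plpp3 -0.82, Smad7 -0.17, Cldn2 -0.86, Axin2 -0.28, Slc39a4 -0.66, Myb -0.37, Igf2r -0.49, miR-195a-5p -0.11 and miR-107-3p -0.040. limma with library weights gave 55 and 2, then 250 and 52, with Plpp3 -0.21, Cldn2 -0.17, Axin2 -0.17, Slc39a4 -0.086, Igf2r -0.26 and miR-195a-5p -0.27. A pseudocount of 5 gave 61 and 1, then 29 and 22, with miR-195a-5p -0.031. limma without WT replicates 5 and 6 called 1 higher, then 207 and 15, with Cldn2 -0.56, Axin2 -0.12, Slc39a4 -0.19, Myb -0.14, Igf2r -0.29, Trim6 -0.50, miR-195a-5p -0.14, miR-503-5p -0.0039 and miR-107-3p -0.12. TMM scaling gave 20 higher and 36 lower by batch, with Plpp3 -0.74, Smad7 -0.15, Cldn2 -0.86, Slc39a4 -0.68 and Myb -0.30. The stricter filter gave 9 and 3 by batch. Batch 1 alone gave Cldn2 -0.32, Axin2 -0.10, Slc39a4 -0.052, Myb -0.35, Igf2r -0.16, Trim6 -0.20, miR-503-5p -0.011 and miR-107-3p -0.39. Batch 2 alone called 21 higher, with miR-15a-5p 0.030, miR-15b-5p 0.12, miR-195a-5p -0.23 and miR-322-5p 0.22.

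Of all peaks, the share called higher in G12D in batch 2 alone was 3.11%, and edgeR with TMM called 0.146% lower. The shares of all peaks called higher and lower in batch 2 were 13.7% and 27% by DESeq2 with its own size factors, 12.9% and 18.9% by edgeR with TMM, 42.9% and 19.9% with library weights, 6.22% and 10.1% with a pseudocount of 5 and 3.68% and 6.94% under the stricter filter. edgeR with deposited size factors called 10.3% higher and 8.01% lower, and TMM scaling 4.89% higher and 14.7% lower. Among the libraries left out below, the share of all peaks called by batch was 1.25% higher and 2.9% lower without G12D replicate 4, 9.17% higher without WT replicate 5 and 16.2% lower without WT replicate 4.

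Leaving out 1 library at a time gave 0 to 257 peaks higher (257 without WT replicate 4) and 0 to 1 lower by genotype. By batch it gave 4 (without G12D replicate 4) to 42 (without WT replicate 5) higher and 3 (without G12D replicate 4) to 38 (without WT replicate 4) lower. Fold changes then ran from -0.13 to 0.44 for Cldn2, -0.015 to 0.48 for Slc39a4, -0.059 to 0.011 for miR-15a-5p, -0.066 to 0.038 for miR-15b-5p, -0.20 to 0.18 for miR-195a-5p, -0.22 to 0.021 for miR-322-5p, -0.30 to 0.074 for miR-497a-5p, -0.028 to 0.36 for miR-503-5p and -0.050 to 0.39 for miR-107-3p. In 27 alternatives 0 family miRNAs were called by genotype, and 2 to 4 by batch over 22.

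With the replicate number as a block, 0 peaks were higher and 0 lower, with a median of 1.5. Deviations of tumours with the same number correlated at -0.52 to 0.31 over peaks, above 0.1 in 1 of 6 pairs. Over miRNAs they correlated at -0.36 to 0.30, above 0.1 in 3 of 6 pairs, and in 3 the same number was the best match. The numbers were not taken to pair tumours, which is less clear over miRNAs than over peaks. Depth limits WT replicates 5 and 6 most.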
